A study of Homo sapiens with 36 samples.

Results

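The E2F1 response was followed in cells in which the B subunit of NF-Y had been depleted: 18 of the 36 arrays of the series came from cells transfected with an siRNA against NFYB, 6 arrays at each of 0, 4 and 8 h of 4-hydroxytamoxifen (OHT). The arrays were chosen by their labels alone. The cells were U2OS, a human osteosarcoma line, carrying a stable retroviral ER-HA-E2F1, a fusion of E2F1 with a hormone-binding domain of the estrogen receptor that moves to the nucleus when OHT is added. NFYB was depleted with a siRNA from Ambion or with another from Dharmacon, with 3 arrays for each siRNA and time. The 18 arrays of the control arm came from cells given a nontargeting siRNA from Dharmacon or from Sigma, sampled at the same times with the same numbers of arrays. Starvation was begun 18 h after transfection and lasted 24 h in both arms, and 80 nM OHT was then added, except at 0 h. Every array at 4 or 8 h had OHT, so the response to E2F1 cannot be told apart from a response to OHT itself or to the longer time without serum. Whether the line grew from a single clone is not given in the sources used here, and the 3 arrays of a siRNA and time were biological replicates.

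E2F1 is a transcription factor held in check by the retinoblastoma protein until cells commit to DNA synthesis. It activates genes for S phase, such as those of cyclin E and the replication machinery, and when deregulated it also activates apoptotic genes. NF-Y activates transcription from CCAAT boxes, and many promoters that are switched on for mitosis carry one. Its DNA-binding unit needs all of its subunits, NFYA, NFYB and NFYC, so a full loss of NFYB would remove the complex as a whole. The siRNAs lowered NFYB RNA without removing it, and how much complex remained was not measured on these arrays.

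Levels are MAS5 signals on a linear scale, with the trimmed mean of each array at 500, and array medians lay between 100.5 and 119.7. Changes are differences of mean log2 signal from a limma fit of all 36 arrays, with standard errors (SE) and p-values adjusted by Benjamini-Hochberg over 22215 probe sets. A probe set with an adjusted p below 0.05 is said to have risen or fallen. Arrays of the same condition correlated at 0.951 to 0.962 on the log2 scale over all probe sets. Of the 9 mesenchymal marker genes fixed for the line, 7 lay in the upper 60% of probe sets by mean signal, against 3 of 8 leukocyte, 3 of 9 epithelial and 1 of 9 endothelial markers. Signals of different genes come from different probes and are not compared with each other. A change in the mean over a culture cannot tell RNA per cell from the share of cells that express a gene.

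The signal of NFYB itself, given here for its brightest probe set, was low with both siRNAs at every time. With the Ambion siRNA it was 53.9 to 81.7 at 0 h, 125 to 159 at 4 h and 117 to 187 at 8 h. With the Dharmacon siRNA it was 55.7 to 67.7, 57 to 111 and 74.1 to 116 at the same times, against 161 to 203, 389 to 491 and 579 to 717 in control siRNA cells. At each time all 6 NFYB siRNA arrays lay below all 6 control siRNA arrays, and at 8 h the Dharmacon arrays lay below the Ambion arrays. NFYB RNA nevertheless rose by 0.86 on the log2 scale in NFYB siRNA cells between 0 and 8 h (SE 0.191, adjusted p = 0.000224), and by 1.79 in control siRNA cells (adjusted p = 2.77e-10). The difference between these rises did not pass the test (−0.93, adjusted p = 0.233), but it passed when each siRNA and time was a group of its own (adjusted p = 0.00823).

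By 8 h of OHT a large part of the transcriptome of NFYB siRNA cells had changed. Of 22215 probe sets, 4106 rose and 6531 fell at 8 h relative to 0 h, of which 2133 rose and 2013 fell by at least 2-fold. Among 11963 genes, each represented by its brightest probe set, 2348 rose (19.6%) and 4035 fell (33.7%). The counts at 8 h in every gene list below are to be read against these shares. The median gene changed by −0.18 and the median probe set by −0.149 on the log2 scale, so changes are best read against a centre slightly below 0. After quantile normalization the share of calls that were increases was 41.9%, against 38.6% as scaled, and no called probe set turned to the opposite direction.

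The greatest increases were in genes nearly silent at 0 h. EGR4, an early growth response transcription factor, had 837, 1023 and 1473 (lowest, median and highest of 6 arrays, as in every later triplet) at 8 h, against 2.46, 9.81 and 17.2 at 0 h, a rise of 6.99 (SE 0.433, adjusted p = 1.57e-16). A second EGR4 probe set rose by less than this with each NFYB siRNA, as given below, so the size depends on the probe set. LHX2, a LIM homeobox factor, had 445, 535 and 608 at 8 h, against 2.06, 4.51 and 22.5 at 0 h, a rise of 6.49. NR4A3, an orphan nuclear receptor, had 287, 341 and 476 at 8 h, against 3.48, 4.18 and 8.09 at 0 h, a rise of 6.29. All 6 arrays at 8 h lay above all 6 at 0 h for these genes. Because the lowest signals vary most, the sizes fell to 5.43 for EGR4, 4.51 for LHX2 and 4.16 for NR4A3 when 16 was added to every signal before the log.

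HEY1 and ABCG2 rose by nearly as much from brighter signals at 0 h. HEY1, a transcriptional repressor downstream of Notch, had 6666, 6899 and 8105 at 8 h, against 99.9, 105 and 129 at 0 h, a rise of 6.01 (SE 0.258). ABCG2, a drug efflux transporter, had 4221, 4474 and 4946 at 8 h, against 70.5, 78.3 and 103 at 0 h (5.80, SE 0.139, adjusted p = 4.03e-29). For both, the lowest array at 8 h was far above the highest at 0 h, and with 16 added the rises were 5.82 and 5.54. The other great increases were CITED1 (6.04), a transcriptional coactivator, MAN1C1 (5.72), a Golgi mannosidase, NR4A2 (5.6), a relative of NR4A3, FA2H (5.6), a fatty acid hydroxylase, DRD5 (5.30), a dopamine receptor, SLC30A4 (5.18), a zinc transporter, and ABCA5 (5.12), a lipid transporter. With 16 added these 7 ranged from 3.50 for SLC30A4 to 5.36 for CITED1.

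The greatest decreases included secreted factors and membrane proteins. TNFRSF11B (osteoprotegerin, a soluble decoy receptor) had 32.9, 89.4 and 173 at 8 h, against 1140, 1497 and 1962 at 0 h, and fell by 4.17 (SE 0.35, adjusted p = 7.35e-13). EDN1, the precursor of the vasoconstrictor endothelin, had 8.29, 42 and 65.4 at 8 h, against 494, 525 and 539 at 0 h, and fell by 3.90. GJA1 (connexin 43, a gap junction channel) had 173, 195 and 249 at 8 h, against 1579, 1790 and 1949 at 0 h, and fell by 3.13 (SE 0.146, adjusted p = 3.33e-20). The 8 h and 0 h arrays did not overlap for any of the 3. CAVIN2, a component of caveolae, fell by 3.72, the nucleosome assembly protein gene NAP1L2 by 3.47, the zinc finger genes ZSCAN31 and ZBTB20 by 3.44 and 3.31, MEAK7, an activator of mTOR signalling, by 3.38, the sialyltransferase gene ST6GALNAC5 by 3.24, the adhesion scaffold gene NEDD9 by 3.17 and TXNRD2, a mitochondrial thioredoxin reductase, by 3.10. KLF6 showed the largest decrease (−4.57) on a probe set that was dim at 8 h, where it had 2.86, 8.08 and 17, against 113, 199 and 346 at 0 h. Its other probe sets changed by −2.78 and −0.30, so the size depends on the probe set.

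The promoters of the 3 genes with the greatest increases and of KLF6, EDN1 and CAVIN2, from among the greatest decreases, are shown because they are where E2F1 or NF-Y would be looked for. Each is the stretch from 250 bases before to 50 bases after the start that RefSeq gives on GRCh38.p14, read 5′ to 3′ on the strand of the gene, with CCAAT or its complement ATTGG in capitals. The E2F motifs searched, on both strands, were TTTCCCGC, TTTCGCGC, TTTGCCGC and TTTGGCGC, and none of the 6 windows held one. EGR4 (chr2:73293499-73293798, minus strand), NR4A3 (chr9:99821635-99821934, plus strand) and CAVIN2 (chr2:191847039-191847338, minus strand) held neither motif. LHX2 (chr9:124011518-124011817, plus strand) and EDN1 (chr6:12287769-12288068, plus strand) each held 1 CCAAT, and KLF6 (chr10:3785160-3785459, minus strand) held 2 copies of ATTGG.
EGR4: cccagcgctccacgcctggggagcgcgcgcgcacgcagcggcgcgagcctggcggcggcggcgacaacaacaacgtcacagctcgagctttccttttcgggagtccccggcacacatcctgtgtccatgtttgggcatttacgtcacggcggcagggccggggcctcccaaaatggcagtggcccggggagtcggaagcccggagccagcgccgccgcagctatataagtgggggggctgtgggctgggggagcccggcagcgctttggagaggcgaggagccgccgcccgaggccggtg
LHX2: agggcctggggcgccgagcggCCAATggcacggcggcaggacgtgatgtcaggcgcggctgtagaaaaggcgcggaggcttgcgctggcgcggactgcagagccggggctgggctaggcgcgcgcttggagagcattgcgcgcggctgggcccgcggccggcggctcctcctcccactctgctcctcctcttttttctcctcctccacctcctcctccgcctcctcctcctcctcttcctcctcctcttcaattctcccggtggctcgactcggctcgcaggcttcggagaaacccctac
NR4A3: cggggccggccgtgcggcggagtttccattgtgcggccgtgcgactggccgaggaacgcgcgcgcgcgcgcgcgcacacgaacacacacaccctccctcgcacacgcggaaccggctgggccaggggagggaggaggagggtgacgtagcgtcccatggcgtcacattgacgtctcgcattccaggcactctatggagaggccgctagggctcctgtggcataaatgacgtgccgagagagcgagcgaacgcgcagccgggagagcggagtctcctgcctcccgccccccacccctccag
KLF6: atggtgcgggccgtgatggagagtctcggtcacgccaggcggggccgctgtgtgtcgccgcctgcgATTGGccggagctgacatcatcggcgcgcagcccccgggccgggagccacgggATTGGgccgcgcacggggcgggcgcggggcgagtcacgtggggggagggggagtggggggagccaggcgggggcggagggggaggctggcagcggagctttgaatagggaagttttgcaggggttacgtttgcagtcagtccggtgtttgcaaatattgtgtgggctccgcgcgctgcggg
EDN1: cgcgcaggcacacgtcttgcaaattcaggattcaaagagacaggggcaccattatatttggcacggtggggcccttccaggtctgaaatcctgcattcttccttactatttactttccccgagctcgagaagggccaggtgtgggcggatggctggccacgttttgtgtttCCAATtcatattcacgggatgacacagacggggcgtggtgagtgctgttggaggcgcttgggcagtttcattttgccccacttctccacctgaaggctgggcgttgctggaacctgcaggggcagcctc
CAVIN2: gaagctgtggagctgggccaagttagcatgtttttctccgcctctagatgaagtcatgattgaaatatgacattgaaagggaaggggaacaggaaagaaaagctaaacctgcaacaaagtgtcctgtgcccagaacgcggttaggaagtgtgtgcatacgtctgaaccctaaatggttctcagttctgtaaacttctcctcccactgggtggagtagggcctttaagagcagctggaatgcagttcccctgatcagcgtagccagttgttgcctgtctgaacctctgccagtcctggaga

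Over all genes with a promoter in that table the shares with a motif lay near those of all measured genes. A CCAAT box stood in 34.2% of the promoters of genes that rose and 39.6% of those that fell, against 37.3% of the 9562 measured genes with a promoter. For genes that changed by at least 2-fold the shares were 32.8% for those that rose and 41.9% for those that fell. An E2F motif stood in 5.33% of promoters of genes that rose and 5.16% of those that fell, against 4.88% of all measured. The windows hold 1 start per gene, and a missing match says only that these letters are not in the window.

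Most of the increase was reached by 4 h. Against 0 h, 1908 genes rose (15.9%) and 3047 fell (25.5%) at 4 h, and between 4 and 8 h 921 rose (7.7%) and 1461 fell (12.2%). These comparisons share arrays with that of 8 h and 0 h. Of the 1201 genes at least 2-fold higher at 8 h, 1078 (89.8%) had already risen at 4 h, and the median gene had reached 79.7% of its log2 change by then (quartiles 64.8 to 95). Of the 1229 genes at least 2-fold lower, 968 (78.8%) had fallen at 4 h, with a median of 59.5% (quartiles 46 to 74.8). After 4 h, 442 of the 1078 genes already raised rose further, 576 did not pass the test and 60 fell back. Of the 968 already lowered, 547 fell further, 417 did not pass and 4 rose back. Among the 123 raised genes not called at 4 h, 42 rose between 4 and 8 h. Among the 261 lowered genes not called at 4 h, 89 fell in that step.

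Single genes showed each of these courses. ABCG2 had a median of 78.3 at 0 h, 2398 at 4 h and 4474 at 8 h, and rose in both steps (4.85 and 0.95). SOX9, a transcription factor of cartilage, fell fully by 4 h, with medians of 2913, 355 and 403 at 0, 4 and 8 h, and the connective tissue growth factor gene CCN2 did likewise, with 6262, 1113 and 1253. GJA1 and TNFRSF11B fell in both steps, with medians of 1790, 652 and 195 for GJA1 and of 1497, 266 and 89.4 for TNFRSF11B. A late rise was largest in GABBR2, a subunit of the GABA-B receptor, with medians of 59.2, 116 and 1816, which rose by 3.84 between 4 and 8 h. CUX2, a homeobox factor, rose by 2.50 and PIP5K1B, a lipid kinase, by 1.95 in the same step. Late falls included UBE2H, a ubiquitin-conjugating enzyme, with −2.54 on a probe set dim at 8 h, and PLCXD1 with −1.93.

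**Figure D1:**
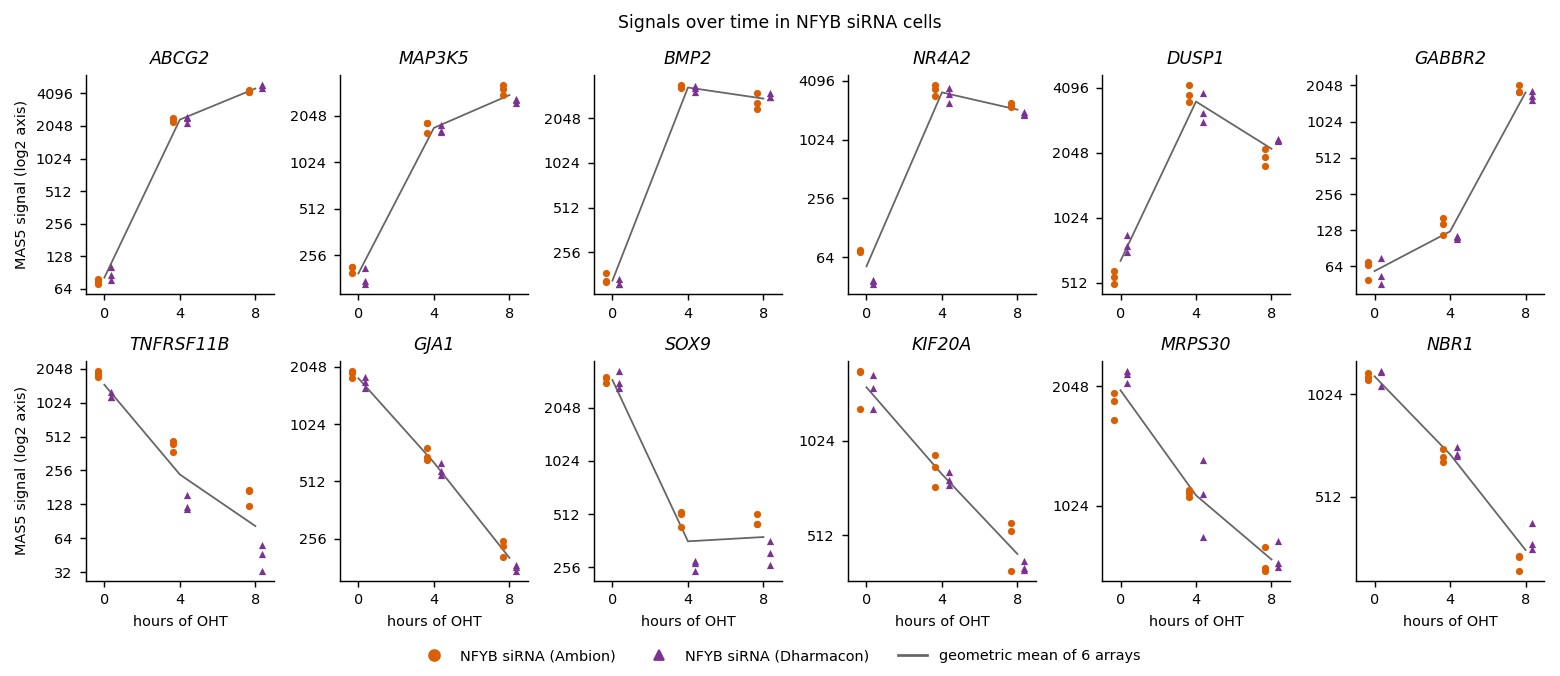
Signal (log axis) of 12 genes in NFYB siRNA cells at 0, 4 and 8 h of OHT, with 1 point per array, coloured by siRNA, and a line through the geometric mean of the 6 arrays at each time. ABCG2 and MAP3K5 climb throughout, NR4A2 and DUSP1 peak at 4 h, GABBR2 climbs after 4 h, and the lower row falls.

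Immediate-early genes, which respond within minutes to growth signals, made the clearest group that rose early. Of 23 measured, 15 rose and 4 fell at 8 h, with a median of 1.62, against −0.18 over all genes, and between 4 and 8 h 1 rose and 12 fell. EGR1 had a median of 2125 at 0 h, 9760 at 4 h and 11465 at 8 h. NR4A2 had 38.1, 2786 and 1836, and ATF3, a stress-induced factor, had 135, 1202 and 877. KLF10 had 1507, 10232 and 7748, and fell after 4 h by 0.40. The phosphatase genes DUSP1 and DUSP2, which switch off MAP kinases, followed the same course, with medians of 649, 3654 and 2221 and of 110, 1193 and 799. Their list of 13 MAP kinase feedback genes had 5 that rose and 3 that fell at 8 h. NFKBIA, the inhibitor of NF-kB, had 222, 1146 and 644, and the interferon regulatory factor IRF1 had 184, 1301 and 885. Of 26 interferon response genes, however, 11 fell and 4 rose at 8 h (42.3% and 15.4%, median −0.40). The falls after 4 h of NFKBIA (−0.80) and IRF1 (−0.51) passed the test. With the Dharmacon siRNA alone the falls of IRF1 (adjusted p = 0.085), KLF10 (adjusted p = 0.134) and DUSP1 (adjusted p = 0.352) did not pass, and those of NR4A2 (adjusted p = 0.116 and 0.157) and DUSP2 (adjusted p = 0.0879 and 0.152) passed with neither the Ambion nor the Dharmacon siRNA alone. For NFKBIA and IRF1 all 6 arrays at 8 h remained above those at 0 h.

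Genes of DNA replication and the G1/S transition changed in both directions. Of 43 measured, 15 rose and 19 fell at 8 h (34.9% and 44.2%, against 19.6% and 33.7% of all genes), with a median of 0.02 that was −0.05 with the Ambion and −0.01 with the Dharmacon siRNA alone. The cyclin E genes, which drive entry into S phase, rose: CCNE1 had 7000, 9102 and 10416 at 8 h, against 1242, 1334 and 1526 at 0 h (2.69, SE 0.0887, adjusted p = 7.07e-25). CCNE2 rose by 2.85. CDC25A, the phosphatase that activates CDK2, had 1383, 1499 and 1772 at 8 h, against 300, 399 and 418 at 0 h, a rise of 1.98. DBF4, the activator of the origin-firing kinase CDC7, rose by 1.55 and GINS2, part of the replicative helicase, by 1.30. An E2F motif stood in 47.2% of the 36 promoters found for the list, against 4.88% of all measured genes.

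Nucleotide synthesis genes mostly fell, 12 of 20 against 4 that rose (median −0.44). The exceptions included RRM2, the small subunit of ribonucleotide reductase, which had 12991, 17168 and 18773 at 8 h, against 3509, 3871 and 4302 at 0 h (2.05), and the salvage kinase gene DCK (2.15). PFAS, of purine synthesis, fell by 1.09, and CAD, of pyrimidine synthesis, by 0.91. Of 12 E2F, RB and DP family genes 4 rose and 3 fell. The repressor gene E2F8 rose by 1.94, with 1026, 1234 and 1484 at 8 h, against 236, 326 and 377 at 0 h. E2F2 rose by 1.67, and TFDP1, the dimer partner of E2F proteins, by 0.76.

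Of 42 genes of G2 and mitosis, 22 fell and 10 rose at 8 h (52.4% and 23.8%, against 33.7% and 19.6% of all genes). Their median of −0.24 lay near the −0.18 over all genes. KIF20A, a kinesin of cytokinesis, had 396, 414 and 563 at 8 h, against 1291, 1580 and 1705 at 0 h, and fell by 1.76 (SE 0.119). The spindle checkpoint kinase gene TTK fell by 1.67, the kinetochore gene CENPF by 0.97 and cyclin B2 (CCNB2) by 0.64. Cyclin A2 (CCNA2) changed by −0.22 on its brighter probe set without passing the test (adjusted p = 0.306) and fell by 0.33 on the other (adjusted p = 0.0145). MKI67, the Ki-67 proliferation antigen, rose by 0.78. CCAAT boxes stood in 26 of the 32 promoters found for this list (81.2%, against 37.3% of all measured genes). Of 24 DNA repair genes, 13 fell and 5 rose (54.2% and 20.8%). ATR, the replication stress kinase, fell by 1.52, DDB2, of nucleotide excision repair, by 1.56 and BRCA1 by 0.93. The mismatch repair gene MSH6 rose by 0.49.

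Apoptotic regulators changed in both directions, with strong increases among activators and in the inhibitor BCL2. Of 29 proapoptotic genes, 10 rose and 13 fell (34.5% and 44.8%, against 19.6% and 33.7% of all genes). Their median was 0.05, and it was −0.10 with the Ambion and −0.13 with the Dharmacon siRNA alone. MAP3K5 (ASK1, a stress-activated kinase) had 2490, 2700 and 3260 at 8 h, against 165, 203 and 216 at 0 h, a rise of 3.84 (SE 0.0716, adjusted p = 4.06e-32). HRK, a BH3-only protein, had 1090, 1249 and 1395 at 8 h, against 85.4, 97.8 and 125 at 0 h (3.63). APAF1, the core of the apoptosome, rose by 2.74, PPP1R13B, a partner of p53, by 1.93 and SIVA1 by 1.26. All 6 arrays at 8 h were above all 6 at 0 h for each of these. Of 25 anti-apoptotic genes, 10 rose and 9 fell (40% and 36%). BCL2 rose by 2.78 and AKT1 by 1.11, whereas CFLAR, the inhibitor of caspase-8, fell by 1.84 on its brightest probe set, with 9 of its other 10 probe sets also negative. Of 16 p53 targets, 9 fell and 4 rose (56.2% and 25%). CDKN1A (p21) rose by 1.61 and PPM1D by 2.0, while CCNG1 fell by 0.85 and XPC by 1.78.

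The PI3K and FOXO list moved mostly upward, with 10 of 18 raised and 3 lowered (55.6% and 16.7%) and a median of 0.76. FOXO1 had 631, 696 and 769 at 8 h, against 119, 140 and 176 at 0 h (2.30), and FOXO3 had 1880, 2262 and 2572, against 449, 509 and 573 (2.16). Both encode forkhead factors that AKT keeps out of the nucleus. The adaptor gene GAB2 rose by 1.84 and PDPK1, the kinase that activates AKT, by 1.21. Among inhibitors of the cell cycle and D cyclins, 7 of 17 rose and 7 fell. CDKN1C (p57) had 3678, 4715 and 5771 at 8 h, against 138, 259 and 318 at 0 h (4.37). Cyclin D3 (CCND3) rose by 2.24 and CDKN1B (p27) by 1.85. The CDKN1B signal was higher at 4 h, with a median of 5091, than at 8 h, with 3785. MYB, a proto-oncogene of progenitor cells, had 1850, 2058 and 2254 at 8 h, against 84.2, 102 and 131 at 0 h (4.31), whereas MYC fell by 1.08.

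Among genes of developmental signalling, more rose than fell in the TGF-beta and BMP, Wnt and Notch lists. Of 32 TGF-beta and BMP genes, 17 rose and 7 fell (53.1% and 21.9%, against 19.6% and 33.7% of all genes), with a median of 0.42. The ligand gene BMP2 had 2371, 2849 and 3041 at 8 h, against 155, 163 and 184 at 0 h, a rise of 4.07 (SE 0.0627, adjusted p = 7.86e-35). The helix-loop-helix inhibitor gene ID4 had 5229, 5614 and 6054, against 231, 283 and 339 (4.33). The pseudoreceptor gene BAMBI rose by 2.92 and the receptor gene ACVR1B by 2.26. Of 26 Wnt genes 12 rose and 6 fell (46.2% and 23.1%). Those that rose included the nuclear effector LEF1 (2.66), the receptors FZD5 (3.26) and FZD1 (2.09), and the ligand WNT5A (2.01). FZD1 had its highest median at 4 h (2021, against 1421 at 8 h). Of 14 Notch genes 8 rose and 3 fell (57.1% and 21.4%). The ligands JAG2 (2.90) and JAG1 (1.45) rose and the receptor NOTCH2 fell (−0.89).

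Of 30 growth factor genes of the FGF, PDGF, EGF and VEGF families, 12 rose and 10 fell (40% and 33.3%). FGFR3 had 2110, 2539 and 2800 at 8 h, against 81.1, 98 and 134 at 0 h (4.62), and FGFR2 rose by 2.49, the ligand genes VEGFC by 3.03 and TGFA by 3.26. Of 21 NF-kB genes 8 rose and 5 fell (38.1% and 23.8%), with RELB (1.85) and the chemokine gene CXCL8 (3.50) among those that rose. In the list of protein kinase C and calcium signalling, 13 of 21 rose and 3 fell (median 0.41), including the transcription factor NFATC1 (3.25).

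Genes of the mitochondrion fell by smaller amounts but in most of their members. Of 38 genes of oxidative phosphorylation 31 fell (81.6%), with a median of −0.33. The count was 27 with the Ambion and 17 with the Dharmacon siRNA alone, with medians of −0.43 and −0.24. Those fits had fewer arrays. Over all 11963 genes 3328 fell with the Ambion and 3255 with the Dharmacon siRNA alone, against 4035 with both. NDUFS1, of complex I, had 650, 685 and 815 at 8 h, against 1042, 1193 and 1216 at 0 h (−0.71), and UQCRC2, of complex III, fell by 0.56. Of 41 mitochondrial ribosome genes 33 fell and 1 rose (median −0.50), and 30 and 25 fell by siRNA. MRPS30 had 703, 728 and 833 at 8 h, against 1684, 2026 and 2237 at 0 h (−1.41, SE 0.0966), MRPS12 fell by 1.25 and MRPL16 by 1.08. The pyruvate dehydrogenase genes PDHB and DLAT fell by 1.30 and 1.11. Glycolysis and the lysosome lay closer to all genes, with 9 of 23 lowered and 6 raised (median −0.03) and 11 of 28 lowered and 4 raised (median −0.17).

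The cytosolic ribosome moved less, with 1 of 23 genes lowered and a median of −0.07, which was −0.25 for the Ambion and 0.08 for the Dharmacon siRNA taken alone. The single call, RPL3 (−0.23, adjusted p = 0.0154), was lost without either the NFYB-Ambion replicate 2 at 0 h (adjusted p = 0.0565) or that at 8 h (0.0512). Of 15 ribosome biogenesis genes 9 fell and 2 rose, with NOP16 at −1.80, the RNA polymerase I and III subunit gene POLR1C at −1.64 and UBTF, the factor that opens ribosomal DNA, at 1.33. Of 25 proteasome genes 19 fell, PSMD12 among them by 0.54, and 1 rose. With the Dharmacon siRNA alone 11 fell, against 3255 of all 11963 genes in that fit. Of 17 cholesterol synthesis genes 12 fell and 2 rose, with MSMO1 at −1.22 and NSDHL at −1.07. Fatty acid synthesis had 7 of 12 lowered and 3 raised, with ACSL1 at 2.08 and FASN at 0.88.

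Of 33 extracellular matrix genes 16 fell and 2 rose (median −0.42), including SERPINH1, the collagen chaperone (−1.42), and COL6A3 (−0.75). The plasminogen activator genes PLAU and PLAT fell by 1.81 and 1.51. Heat shock chaperones fell in 11 of 14 genes, among them DNAJB4 (−1.89). With the Ambion siRNA alone 6 fell, against 3328 of all 11963 genes in that fit. Of 27 endoplasmic reticulum folding and stress genes 10 rose and 3 fell, led by DNAJB9 (1.81) and CRELD2 (1.04). Of 24 autophagy genes 8 rose and 9 fell (33.3% and 37.5%). The kinase gene ULK2 was at 2.74 and the cargo receptor gene NBR1 at −1.70. The lysosomal regulator TFEB rose by 2.27. Of 13 histone genes 3 rose and 8 fell (23.1% and 61.5%). H2BC5 fell by 1.36, and SLBP, which binds histone mRNA, rose by 2.08. Of 21 HOX and partner genes 7 rose and 10 fell (33.3% and 47.6%), with PBX3 at 1.65 and HOXB2 at −1.87.

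The response in NFYB siRNA cells was close to that in control siRNA cells. At 8 h, 2519 genes rose (21.1%) and 4100 fell (34.3%) in control siRNA cells. The arms share no arrays, so probe sets chosen in one can be read in the other. The 2358 probe sets that rose by at least 2-fold in control siRNA cells had a median of 1.46 in NFYB siRNA cells, against 1.64 in the control siRNA cells in which they were chosen, and 96.9% had the same sign. The 2075 that fell had a median of −1.23 in NFYB siRNA cells, against −1.38 in control siRNA cells, with 98.4% of the same sign. Chosen the other way round, the 2133 that rose in NFYB siRNA cells had medians of 1.61 in NFYB siRNA cells and 1.60 in control siRNA cells, and the 2013 that fell had −1.38 and −1.29. In each case the median was nearer to 0 in the arm in which the probe sets had not been chosen. Over the 13329 brighter probe sets the responses correlated across probe sets at r = 0.968 (rho = 0.951), a description of points that share arrays. For 12127 of them (91.0%) the 95% interval of the difference lay within 2-fold either way.

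The difference between the arms' responses was called for 45 of 22215 probe sets (0.203%), 38 with a more positive change in NFYB siRNA cells and 7 with a more negative one, and 1572 had an unadjusted p under 0.05. They covered 40 genes. In 33 the change was called in the same direction in both arms, in 5 only in NFYB siRNA cells, in 3 only in control siRNA cells, and in 4 in opposite directions. Of the 45, 20 kept their call without any single one of the 36 arrays, and 1, CDC25C, also without each replicate number. The count itself rested on few arrays. It was 2 when NFYB siRNA cells were represented by the Ambion siRNA alone and 235 by the Dharmacon siRNA alone. It was 27, 22 and 24 without NFYB-Dharmacon replicate 1, 2 or 3 at 8 h, 29 without control-Sigma replicate 3 at 8 h, and 8, 4 and 3 without all arrays of replicate number 1, 2 or 3. Of the 38, 12 had all NFYB siRNA arrays above all control siRNA arrays at 8 h and overlapped at 0 h, 14 overlapped at 8 h with NFYB siRNA arrays below at 0 h, 6 were below at both times, 5 overlapped at both and 1 was above at both.

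CDC25C, the phosphatase that activates CDK1 at entry into mitosis, changed little in NFYB siRNA cells and fell in control siRNA cells on its brightest probe set. At 8 h it had 444, 516 and 613 in NFYB siRNA cells, against 174, 186 and 240 in control siRNA cells, and at 0 h it had 418, 458 and 544, against 394, 443 and 472. Its change was 0.13 (95% interval −0.07 to 0.33, adjusted p = 0.302) in NFYB siRNA cells and −1.17 (adjusted p = 5.31e-13) in control siRNA cells, a difference of 1.30 (SE 0.138, adjusted p = 5.82e-07). By siRNA, the 8 h change was −0.12 for Ambion and 0.38 for Dharmacon. Without any single array the difference stayed between 1.25 and 1.36. Another, dimmer CDC25C probe set rose by 0.89 in NFYB siRNA cells (adjusted p = 0.000509) and changed by −0.43 in control siRNA cells (adjusted p = 0.0964), so the arms parted in the same direction by other courses. Its difference was 1.32 (adjusted p = 0.0462), a call lost without 26 of the 36 arrays taken singly. The remaining CDC25C probe set was dimmer still, with means of 28.8 at 8 h and 10.5 at 0 h in NFYB siRNA cells. It rose by 1.48 in NFYB siRNA cells (adjusted p = 0.00485) and changed by 0.19 in control siRNA cells (adjusted p = 0.76). Its difference of 1.29 was not called (adjusted p = 0.694). Of the 42 genes of G2 and mitosis listed, the difference was called for CDC25C alone, and 12 had an unadjusted p under 0.05, against 1572 of all 22215 probe sets. ESPL1 (separase), a mitotic gene outside the list that was named after its values were seen, differed by 0.51 (adjusted p = 0.0485), a call that did not hold in 28 of the 36 fits that left out an array.

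NUDT2, a hydrolase of diadenosine tetraphosphate, was higher in NFYB siRNA cells at both times. It had 843, 1007 and 1396 in NFYB siRNA cells, against 167, 300 and 361 in control siRNA cells, at 8 h, and 632, 747 and 858, against 372, 397 and 537, at 0 h. It rose by 0.47 in NFYB siRNA cells, a call lost without NFYB-Ambion replicate 2 at 0 h (0.41, adjusted p = 0.0591) or NFYB-Dharmacon replicate 2 at 8 h (0.38, adjusted p = 0.0792), and fell by 0.71 in control siRNA cells. The responses differed by 1.18 (SE 0.244, adjusted p = 0.0221), and this call was lost without NFYB-Dharmacon replicate 2 at 8 h (1.09, adjusted p = 0.0636) or replicate 3 (1.15, adjusted p = 0.0524). Of the promoters of genes whose response differed, 20 of 32 held CCAAT (62.5%, against 37.3% of all measured genes). The promoters of CDC25C (chr5:138338306-138338605, minus strand) and NUDT2 (chr9:34329319-34329618, plus strand) are shown after their values were seen, with the same marking. The CDC25C window held neither motif, and whether these cells start the gene at the place RefSeq lists was not tested. The NUDT2 window held 2 copies of CCAAT and 1 of ATTGG.
CDC25C: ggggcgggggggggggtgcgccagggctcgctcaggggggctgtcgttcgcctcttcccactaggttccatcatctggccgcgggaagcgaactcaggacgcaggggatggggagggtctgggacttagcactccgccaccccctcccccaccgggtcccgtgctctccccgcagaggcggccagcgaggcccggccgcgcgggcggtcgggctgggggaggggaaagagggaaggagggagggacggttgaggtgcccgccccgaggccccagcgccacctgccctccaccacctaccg
NUDT2: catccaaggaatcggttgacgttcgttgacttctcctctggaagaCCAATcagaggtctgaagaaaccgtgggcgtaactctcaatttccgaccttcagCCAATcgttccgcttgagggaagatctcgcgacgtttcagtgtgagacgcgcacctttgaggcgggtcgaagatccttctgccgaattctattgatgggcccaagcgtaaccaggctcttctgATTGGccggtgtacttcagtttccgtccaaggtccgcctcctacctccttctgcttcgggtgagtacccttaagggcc

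SMAD7, the inhibitory SMAD, and ID2, a helix-loop-helix inhibitor, had a more positive 8 h change in NFYB siRNA cells. Like FAM111A and GMNN, they were named after their values were seen. SMAD7 rose by 1.28 in NFYB siRNA cells and 0.40 in control siRNA cells. ID2 rose by 0.85 in NFYB siRNA cells and was not called in control siRNA cells (0.01, adjusted p = 0.958). At 4 h the NFYB and control siRNA medians were 1486 and 1517 for SMAD7 and 1040 and 848 for ID2. Each lay above its 8 h median. SMAD7 had 720, 737 and 830 in NFYB siRNA cells, against 459, 500 and 587 in control siRNA cells, at 8 h, and 275, 301 and 407, against 287, 402 and 491, at 0 h (difference 0.88, adjusted p = 0.0218). ID2 had 674, 863 and 966, against 479, 511 and 652, at 8 h, and 347, 481 and 567, against 456, 530 and 660, at 0 h (0.84, adjusted p = 0.0135). For both, the arms were apart at 8 h and overlapped at 0 h. With BMP2 (0.42, adjusted p = 0.0248, lost without 9 single arrays) they made 3 of the 32 TGF-beta and BMP genes. FAM111A, a protease that acts at replication forks, differed by 0.75 (adjusted p = 0.000775), with 3119, 3694 and 4203 in NFYB siRNA cells, against 2283, 2513 and 2795 in control siRNA cells, at 8 h. GMNN, the replication licensing inhibitor geminin, differed by 0.63 (adjusted p = 0.022, lost without NFYB-Dharmacon replicate 1 or 2 at 8 h). RRM2, whose rise was 2.05 in NFYB siRNA cells and 1.5 in control siRNA cells, differed by 0.55 (adjusted p = 0.0258, lost without 11 single arrays).

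In other genes the arms were apart before OHT and met at 8 h. MT1X, a metallothionein that binds zinc and copper, had 935, 1014 and 1229 in NFYB siRNA cells, against 806, 1102 and 1283 in control siRNA cells, at 8 h. At 0 h it had 1214, 1454 and 2155, against 2631, 4916 and 9301, and the difference was 1.53 (adjusted p = 0.0218). The probe sets of this family can bind RNA of several members. Of 7 metallothionein genes 1 fell in NFYB siRNA cells (median −0.39), whereas all 7 fell in control siRNA cells (median −1.54). The test of the difference called 1 of the 7, MT1E, and all 7 had an unadjusted p under 0.05. The list counts MT1X by a brighter probe set (−0.39, adjusted p = 0.0839), and the one printed above fell by 0.62 in NFYB siRNA cells (adjusted p = 0.0178), as MT1E did by 0.60 (adjusted p = 0.0163). MT1E differed by 1.40 (adjusted p = 0.0248), which did not pass without NFYB-Dharmacon replicate 1 (1.32, adjusted p = 0.062) or 2 at 8 h (1.35, 0.0636), control-Dharmacon replicate 2 at 0 h (1.34, 0.0502) or control-Sigma replicate 3 at 0 h (1.33, 0.053). CDK19, a kinase of the Mediator complex, had 82.4, 126 and 150 in NFYB siRNA cells, against 139, 169 and 215 in control siRNA cells, at 8 h, and 5.89, 8.02 and 21.9, against 22.6, 41.8 and 60.7, at 0 h. Its difference of 1.63 (adjusted p = 0.0342) was lost without 15 single arrays and was 0.68 (adjusted p = 0.437) with 16 added to each signal. MMP15, a membrane-type metalloproteinase, had 169, 225 and 359 in NFYB siRNA cells, against 195, 259 and 283 in control siRNA cells, at 8 h, and 4.77, 8.48 and 10.7, against 18.4, 34.8 and 44.9, at 0 h. Its difference of 1.81 (adjusted p = 0.0113) was 0.86 (adjusted p = 0.283) with 16 added to each signal.

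PRKCZ, an atypical protein kinase C, was below control siRNA cells at both times, with 500, 611 and 645 in NFYB siRNA cells, against 654, 943 and 987 in control siRNA cells, at 8 h. At 0 h it had 128, 134 and 160, against 305, 372 and 448. It rose by 2.11 in NFYB siRNA cells and 1.26 in control siRNA cells (difference 0.84, adjusted p = 0.0098). SLCO4C1, an organic anion transporter, was likewise below at both times and differed by 1.01 (adjusted p = 0.0221), and KLHL24, a ubiquitin ligase adaptor, differed by 1.42 (adjusted p = 0.022) with arms that overlapped at both.

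Among the 7 differences in the other direction, MYBL1 (A-MYB) rose in both arms but less in NFYB siRNA cells. It had 1269, 1582 and 1778 in NFYB siRNA cells, against 1895, 1949 and 2096 in control siRNA cells, at 8 h, and 341, 372 and 398, against 255, 289 and 346, at 0 h (−0.71, SE 0.132, adjusted p = 0.0109). SLC66A2 differed by −0.50 (adjusted p = 0.0109). SUCO, an endoplasmic reticulum protein, differed by −0.95 (adjusted p = 0.0221), a call lost without NFYB-Dharmacon replicate 2 or 3 at 8 h. BAG1, a cochaperone that binds BCL2, rose by 1.22 in NFYB siRNA cells and 1.72 in control siRNA cells (−0.50, adjusted p = 0.0325, lost without 11 single arrays), and the adenylate cyclase gene ADCY3 by 1.49 and 1.98 (−0.49, adjusted p = 0.0462, lost without 28). In the cytosolic ribosome list the differences were instead positive, above 0 for all 23 genes, with a median of 0.19, against −0.007 over all genes. In that list 1 gene fell in NFYB siRNA cells, against 18 in control siRNA cells (medians −0.07 and −0.26). The test of the difference in limma called 0 of the 23 genes, with 2 at an unadjusted p under 0.05.

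**Figure D2:**
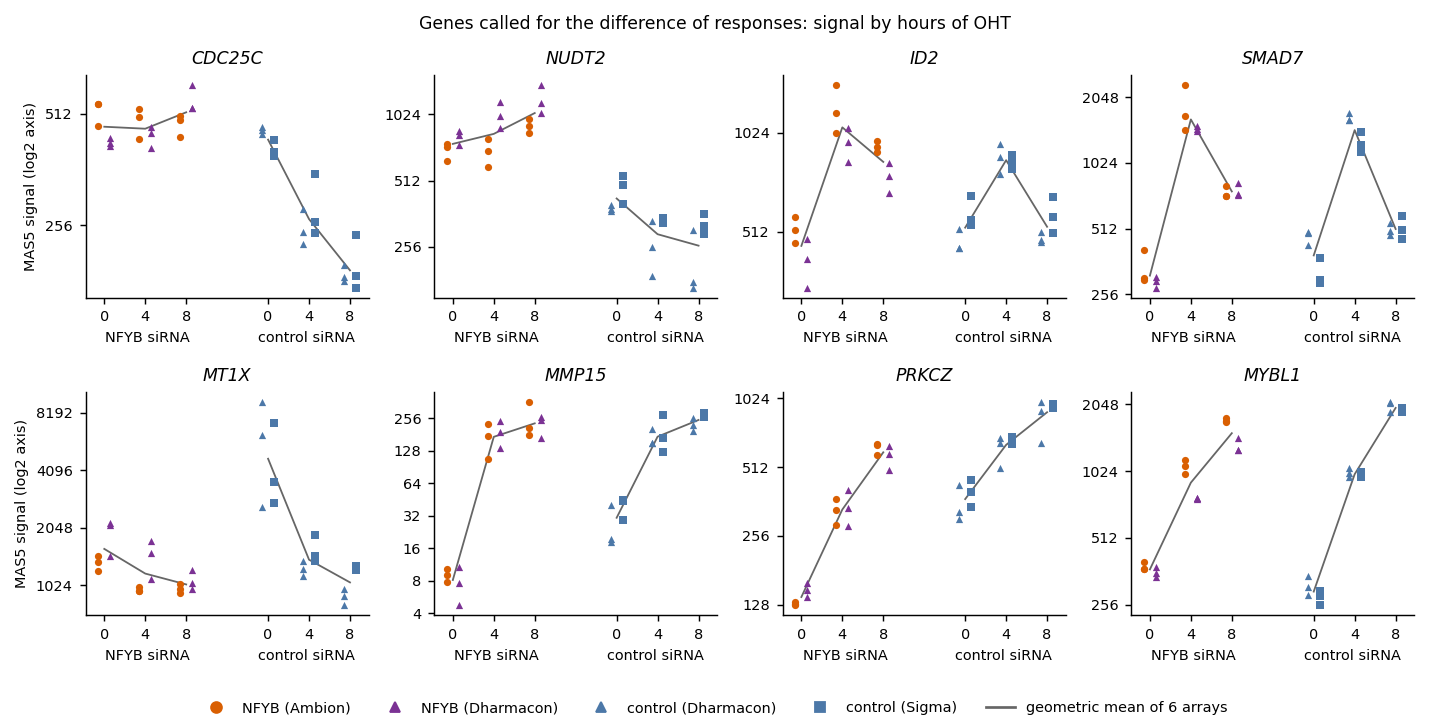
Signal (log axis) of 8 genes whose response differed, at 0, 4 and 8 h of OHT. In each panel the times of the NFYB siRNA arrays stand left and those of the control siRNA arrays right. CDC25C falls by 8 h in the control siRNA arrays, ID2 and SMAD7 part at 8 h, and MT1X, MMP15 and PRKCZ start lower in NFYB siRNA cells.

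The NFYB siRNAs gave similar but not equal responses. Probe sets at least 2-fold higher with the Ambion siRNA (2047) had medians of 1.72 there and 1.55 for the Dharmacon siRNA, and those lower (1711) had −1.36 and −1.31. Chosen with the Dharmacon siRNA, the 2083 higher ones had a median of 1.51 with the Ambion siRNA, against 1.70, and the 2271 lower ones −1.08, against −1.43. The difference between the siRNAs was called for 521 probe sets (2.35%), 278 more positive with the Ambion siRNA and 243 more negative, with 3508 at an unadjusted p under 0.05. The count was 1201 without NFYB-Dharmacon replicate 1 at 0 h. It was 268 to 319 without NFYB-Ambion replicate 1 or 2 at 0 h or 2 or 3 at 8 h, or without NFYB-Dharmacon replicate 2 or 3 at 0 h or 2 at 8 h, and it was 824, 20 and 103 without replicate number 1, 2 or 3. BCL2A1, an anti-apoptotic BCL2 relative, rose by 2.98 in Ambion and 0.96 in Dharmacon NFYB siRNA cells (difference 2.03, adjusted p = 3.01e-05). KCNK10, a potassium channel, rose by 1.82 and 3.48 (−1.66, adjusted p = 1.75e-05), GPRC5C, an orphan receptor, by 0.72 and 2.33 (−1.61, adjusted p = 0.000734), and SORBS3, an adhesion adaptor, changed by −0.50 and 1.71 (−2.21, adjusted p = 0.000297). A second EGR4 probe set rose by 2.29 and 4.44 (−2.15, adjusted p = 0.0028). The other large differences, in SLC30A4 (2.28), the potassium channel gene KCNC4 (2.06) and NACA4P (2.05), were called at adjusted p-values of 0.0188, 0.02 and 0.0477 and lost without 3, 4 and 12 of the 18 NFYB siRNA arrays taken singly. With 16 added none of them passed, at 0.65 (adjusted p = 0.171) for SLC30A4, 1.27 (adjusted p = 0.0653) for KCNC4 and 2.04 (adjusted p = 0.051) for NACA4P.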

How the data were processed

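Total RNA of 36 cultures was hybridised singly to Affymetrix human expression arrays. The deposited values are probe set intensity from MAS5 in Affymetrix Expression Console (version not given in the sources used here), which the authors scaled, as the values show, to a mean of 500 after 2% was trimmed from each end. The table held 22277 probe sets, 62 of them controls, which were left out. Of the other 22215, 19064 named 1 gene, 1043 several and 2108 none in the platform annotation.

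Log2 intensity without an offset was fitted in limma 3.58.1 (R 4.3.3) with 6 groups of arm by time, the siRNAs of an arm pooled, and moderated variances with an intensity trend. Two-sided p-values were adjusted by Benjamini-Hochberg over all 22215 probe sets. The difference between NFYB siRNAs was fitted with 12 groups. The script was tested on simulated data. Replicates were labelled as biological, and the number of arrays limits the precision.

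Gene lists were counted with the brightest probe set of each of 11963 genes. The arrays, lists and tests were chosen with earlier results of these data known. Genes named were those the study names, the 12 greatest changes each way at 8 h against 0 h, the 8 greatest each way in the other time comparisons and in the difference between arms, the 4 greatest each way between siRNAs, and up to 4 of each list by smallest adjusted p. The greatest changes were taken from called probe sets of 1 gene in the upper 60% by mean signal, with one sign with both NFYB siRNAs except in the comparison of siRNAs. Not every gene so named is printed. Promoter sequences are RefSeq's on GRCh38.p14. Results were recomputed with quantile normalization, with 16 added to each signal, with a filter on dim probe sets, with no variance trend, with fewer arrays, with other treatments of siRNA and replicate number, by the methods' t-test and without each array or replicate number.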

Additional observations from a re-analysis of the deposited data

Results flagged for a closer look

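The values of 157 named probe sets were screened in each group of 6 NFYB siRNA arrays, 471 groups in all, for an array that stood apart on the log2 scale by more of its group's range than Dixon's limit allows for 6 arrays. There were 26 such groups, and chance marks about 1 in 20. Among dim signals, EGR4 had 2.46 on NFYB-Dharmacon replicate 3 at 0 h, against 8.46 to 17.2 on the other 5 arrays, and NR4A3 had 8.09 on the same array, against 3.48 to 4.63. DRD5 had 6.24 on NFYB-Ambion replicate 3 at 0 h, against 29.7 to 63, and CDK19 had 21.9 on NFYB-Dharmacon replicate 1 at 0 h, against 5.89 to 8.35. EDN1 was low on NFYB-Dharmacon replicate 2 at 8 h (8.29, against 32.5 to 65.4) and at 4 h (5.43, against 39.7 to 84), and TXNRD2 on the same siRNA and replicate at 8 h (4.97, against 21.9 to 37.1). CAVIN2 had 3.17 on NFYB-Ambion replicate 1 at 8 h, against 14.8 to 36.7.

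Among brighter genes the distances were under 1.5-fold, except in TGFA and MT1E. At 8 h, NFYB-Ambion replicate 1 was high in HEY1 (8105) and SLC66A2 (1387) and low in UQCRC2 (1796). At 0 h, NFYB-Dharmacon replicate 1 was low in CDKN1B (783) and NDUFS1 (1042), NFYB-Ambion replicate 3 was low in CDC25A (300) and high in PBX3 (451), and NFYB-Ambion replicate 1 was high in SMAD7 (407). At 4 h, NFYB-Dharmacon replicate 2 was low in TFDP1 (3345), PDHB (1631) and RPL3 (10736), and NFYB-Dharmacon replicate 1 was low in TGFA (453, against 760 to 892) and NOTCH2 (1420) and high in POLR1C (309). At the same time NFYB-Ambion replicate 3 was high in CCNB2 (3155) and low in ID4 (5233), and NFYB-Ambion replicate 1 was high in SMAD7 (2338). The widest was MT1E at 4 h, with 8683 on NFYB-Dharmacon replicate 1, against 2812 to 3601.

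The 8 h response differed between NFYB siRNA and control siRNA cells, by limma's test of the difference itself, in 22 probe sets named in the text. The difference, NFYB siRNA minus control siRNA on the log2 scale, was 1.81 for MMP15, 1.63 for CDK19, 1.53 for MT1X, 1.42 for KLHL24, 1.40 for MT1E, 1.30 and 1.32 for the CDC25C probe sets, 1.18 for NUDT2 and 1.01 for SLCO4C1. It was 0.88 for SMAD7, 0.84 for ID2 and for PRKCZ, 0.75 for FAM111A, 0.63 for GMNN, 0.55 for RRM2, 0.51 for ESPL1 and 0.42 for BMP2, and it was negative for SUCO (−0.95), MYBL1 (−0.71), SLC66A2 (−0.50), BAG1 (−0.50) and ADCY3 (−0.49). The responses with the Ambion and Dharmacon NFYB siRNAs differed in 8 named probe sets. The change was more positive with the Ambion siRNA for SLC30A4 (2.28), KCNC4 (2.06), NACA4P (2.05) and BCL2A1 (2.03). It was more positive with the Dharmacon siRNA for SORBS3 (−2.21), the second EGR4 probe set (−2.15), KCNK10 (−1.66) and GPRC5C (−1.61).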

How the results depend on the processing

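The counts of probe sets that changed in NFYB siRNA cells, 10637 at 8 h against 0 h and 8124 at 4 h against 0 h, stayed within 1.5 times under every alternative run. At 8 h the range was 8730 to 11448, and of the 10637 at least 8287 were called again with the same sign under every alternative, with 0 called in the opposite direction. Leaving out arrays gave 9064 to 10667 at 8 h against 0 h (3645 to 4121 higher and 5419 to 6546 lower), 6301 to 8117 at 4 h against 0 h, 1959 to 3710 at 8 h against 4 h, 3 to 46 for the difference between arms, 9620 to 11132 in control siRNA cells and 20 to 1201 for the difference between NFYB siRNAs. Leaving out each control siRNA array was chosen after seeing the data. The 3660 calls at 8 h against 4 h became 5554 with 12 groups of siRNA by time, 2194 with the Ambion and 1998 with the Dharmacon siRNA alone, and 2093, 1960 and 1959 without replicate number 1, 2 or 3. The 45 differences between arms became 290 with 12 groups, 86 with siRNA as a random block, 99 with a replicate block within siRNA, 2 with the Ambion and 235 with the Dharmacon siRNA alone. The 521 differences between NFYB siRNAs became 343 without the variance trend and 234 with only the NFYB siRNA arrays. The share of increases among calls at 8 h against 4 h was 39.4% as scaled and 48.4% after quantile normalization. The methods' t-test called 9862 probe sets at 8 h against 0 h after adjustment and 11125 before, and 10157 and 11412 in control siRNA cells. The cause of these shifts was not tested. Same-numbered arrays of one siRNA correlated at −0.187 to 0.219 in their deviations from the group means (median 0.0246, n = 36), so numbers were not taken to pair arrays. With the replicate number as a block 10566, 8044, 3591, 33, 11058 and 630 probe sets were called in the order of comparisons above. Of 196 combinations of gene and comparison, 158 kept direction and call under every alternative run. The falls after 4 h of CDKN1B (adjusted p = 0.217 with the Ambion siRNA alone) and TNFRSF11B (0.123 by the methods' t-test) lost their call. CDC25C, not called in NFYB siRNA cells, changed by −0.12 with the Ambion and 0.38 (adjusted p = 0.025) with the Dharmacon siRNA alone. Adding 16 before the log shrank the changes of dim probe sets most, and their sizes are the least precise.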
